A study of Macaca mulatta with 2 samples.

Results

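The 44 genes described here are ligands, receptors, antagonists, SMAD proteins and target genes of transforming growth factor beta (TGF-beta) and bone morphogenetic protein (BMP) signalling, outside the anti-Müllerian hormone, inhibin and activin genes. They were chosen by gene symbol from the annotation of the array probes, with no measured value in the rule, and are 44 of the 21509 gene symbols on the array. Earlier results of these data were known when the genes were chosen. All 44 were present, with 70 probes on 80 spots. The RNA came from primary cultures of rhesus macaque (Macaca mulatta) Sertoli cells, the somatic cells that enclose and support the germ cells of the seminiferous tubule. The infant culture was made from testes of monkeys under 3 months old. The pubertal culture was made from juvenile monkeys aged 18 to 22 months, made precociously pubertal with gonadotropin-releasing hormone, given over 4 to 5 weeks as pulses of 2 min, at 0.15 µg/min and 3 h apart. Before RNA extraction both cultures were exposed for 12 h to follicle-stimulating hormone at 5 ng/ml and testosterone at 100 nM, so neither array shows cells without these hormones.

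Each culture was read on 1 one-colour array, with no replicate, so no test between the stages is possible and no p-value is given. The effects of age, of the hormone pulses, of the animals and of the culture cannot be told apart. The sources used here do not give whether a culture pooled several animals. In RNA from whole cultures, fewer cells of a type and less RNA per cell cannot be told apart. The probes were designed on human sequences, so a mismatch with the monkey transcript lowers a probe's signal by an unknown amount. Each probe was therefore compared with itself across the arrays, never with another probe.

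TGF-beta family ligands are secreted dimers that bring type I and type II receptor kinases together at the cell surface. The activated type I receptor phosphorylates receptor SMADs, which join SMAD4 and enter the nucleus, with SMAD2 and SMAD3 serving mainly the TGF-beta branch and SMAD1, SMAD5 and SMAD9 the BMP branch. In the testis this family takes part in tubule formation, the blood-testis barrier and the traffic of signals between Sertoli cells, peritubular cells and germ cells.

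The array measures these genes through probes of 60 bases, whose sequences are shown for the members on which the results turn. Related genes share sequence, so the probes of different members were compared with each other, in 2378 pairs. Only pairs whose best alignment had at least 40 bases side by side were then ranked. The SMAD1 and SMAD9 probes were the most alike, with 44 of 54 aligned bases identical (81.5%). Next were probes of the BMP type I receptors BMPR1A and BMPR1B, with 35 of 50 (70.0%). The third pair, ACVR1 and TGFBI, had 27 of 48 (56.3%). In the SMAD and BMP receptor sequences that follow, capitals mark the bases that match the other gene's probe.
SMAD1: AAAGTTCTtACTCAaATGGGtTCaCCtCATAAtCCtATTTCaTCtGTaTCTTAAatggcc
SMAD9: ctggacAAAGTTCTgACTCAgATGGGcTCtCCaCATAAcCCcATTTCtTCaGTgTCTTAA
BMPR1A: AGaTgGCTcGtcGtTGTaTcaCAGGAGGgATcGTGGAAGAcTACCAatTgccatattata
BMPR1B: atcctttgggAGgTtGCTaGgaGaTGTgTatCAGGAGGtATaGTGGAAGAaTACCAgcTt
This SMAD1 probe gave 171 intensity units in the pubertal and 230 in the infant culture, while the SMAD9 probe gave 107 and 62.8. Relative to each array's 75th percentile, the alike probes thus differed in opposite directions, by -0.52 for SMAD1 and 0.68 for SMAD9 on the log2 scale. Relative to the spike-in control probes both genes were positive, SMAD1 at 0.38 over its probes and SMAD9 at 1.68. How much of either signal came from the other gene's transcript was not tested.

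The next probes belong to members that lay near or past a 2-fold difference or were measured in the pubertal culture alone, and are given in lower case. They show what was on the array for GDF11, GDF9 and GDF5, which are growth and differentiation factors, for BMP5 and for the inhibitor of DNA binding ID3.
GDF11: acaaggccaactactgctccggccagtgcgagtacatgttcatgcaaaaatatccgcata
GDF9: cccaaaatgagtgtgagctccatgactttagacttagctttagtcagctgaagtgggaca
GDF5: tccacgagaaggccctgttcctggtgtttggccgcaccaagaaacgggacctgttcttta
BMP5: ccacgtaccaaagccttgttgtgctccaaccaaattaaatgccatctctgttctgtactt
ID3: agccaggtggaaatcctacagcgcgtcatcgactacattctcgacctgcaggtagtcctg
For GDF15, TGFB3, ID1 and TGFBI, which had the largest differences on both sides together with GDF11, only the first 30 of the 60 bases are given.
GDF15: tattggggtgaccttcttggggactcgggg
TGFB3: tcctctacatcaattaacatcgtgggtcac
ID1: gcagacattttaaaaaatggtcacgtttgg
TGFBI: agctatgagttgaaatgttctgtcaaatgt
Over all 70 member probes the GC content ran from 25% to 68.3%, with a median of 45%. The probe sequences are the human design's own, and their positions were not used here.

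A level here is the log2 of a gene's signal minus the 75th percentile of that array's gene probes, which was 406.7 intensity units for the pubertal and 382.4 for the infant RNA. A difference is the pubertal level minus the infant level, averaged over the probes of a gene that were well above background on both arrays. The share of gene spots well above background was 54.9% in the pubertal and 54.8% in the infant culture, and no spot was saturated. All 10 Sertoli cell markers examined were well above background on both arrays, FSHR faintly, at -3.27 and -4.05. Markers of other cells were also present and differed between the arrays. Of 10 germ cell markers 8 were well above background in the pubertal and 6 in the infant culture, and GFRA1 in neither culture. Their summed signal was 13.2 and 4.45 times the 75th percentile. All 6 peritubular myoid markers were measured, with summed signals of 165 and 83.9. Of 6 macrophage markers 5 were measured on both arrays, at 4.56 and 0.958 in sum, and LYZ was not well above background on either. Of 6 Leydig cell markers 5 were measured on both arrays, at 45.7 and 151 in sum, and LHCGR in neither culture. STAR, CYP17A1 and CYP11A1 were at least 2-fold lower in the pubertal culture, while HSD3B2 (0.25) and INSL3 (0.41) were slightly higher. Of 6 endothelial markers 4 were well above background in the pubertal and 3 in the infant culture, at 1.53 and 0.701 in sum, with CDH5 and KDR not well above background in either culture. All 6 fibroblast markers were well above background in the pubertal and 5 in the infant culture, at 27.0 and 32.1.

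Of the 44 members, 33 were measured on both arrays, 4 on the pubertal array alone, 4 on the infant array alone and 3 on neither. The growth differentiation factors GDF15 and GDF11 and the ligand TGFB3 were at least 2-fold lower in the pubertal culture, while TGFBI, ID1 and GDF9 were at least 2-fold higher. The 3 members at least 2-fold higher are 9.09% of the 33, against 7.32% of all 14243 genes measured on both arrays. The 3 members at least 2-fold lower are also 9.09%, against 6.32% of all genes. These shares are near the background and are no result about the pathway as a group. The median difference was -0.05 for the members and -0.06 for all genes. Differences within 0.5 of 0 on the log2 scale were found for 17 members, or 51.5%, against 61.5% of all genes. A positive difference was found for 14 members (42.4%), against 45.8% of all genes. The members measured on 1 array alone were 9.09% in each direction, against 4.22% of all gene symbols for the pubertal array and 3.15% for the infant array, with 4 genes in each case.

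**Figure D1:**
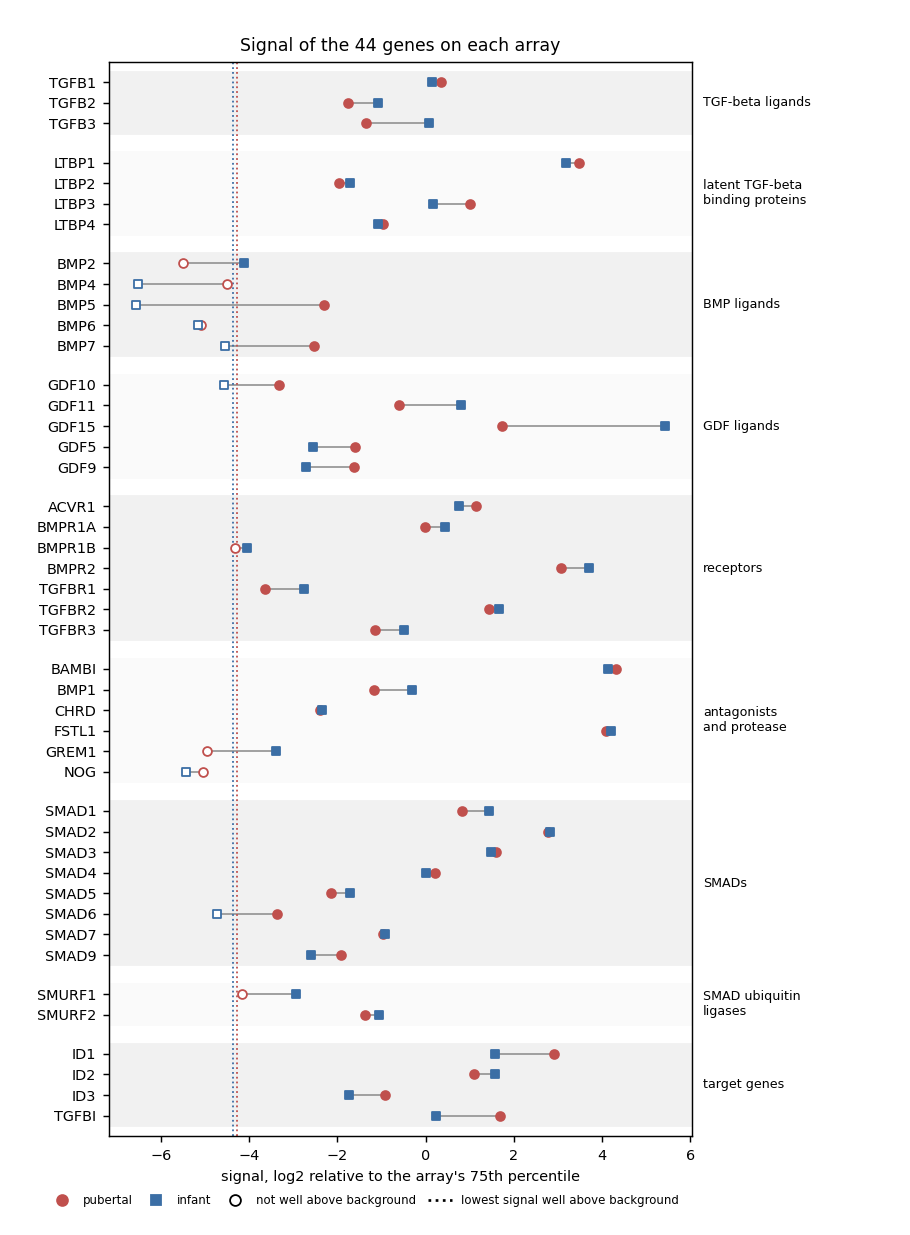
Signal of each of the 44 genes on the pubertal (red circles) and infant (blue squares) arrays, as log2 relative to each array's 75th percentile, ordered by role. Open symbols are not well above background and dotted lines mark the lowest signal that was, at -4.29 in the pubertal and -4.37 in the infant culture; distances within a row can be read, while rows belong to different probes and are not comparable with each other.

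The error of a difference given by the scanner software had a median of 0.20 over the members (0.07 to 0.30). It covers the array and leaves out the spread between cultures, which is unknown here. Some probes of 1 gene gave unlike answers. Among the 12 members with several probes measured on both arrays, 7 had every probe on the same side of 0 and 5 did not, namely LTBP2, LTBP4, CHRD, SMAD2 and SMAD3. The SD between probes of 1 gene ran from 0.01 to 0.58, and another 21 members rested on 1 measured probe.

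Directions also depend on what is taken as unchanged between the arrays. Relative to the 8 spike-in control probes, which were added to the RNA rather than made by the cells, every difference is larger by 0.996, and 16 of the 19 negative members turn positive. Under all 6 scalings tried, 15 members kept the same sign. Those with a positive difference were ACVR1, BAMBI, GDF5, GDF9, ID1, ID3, LTBP1, LTBP3, SMAD4, SMAD9, TGFB1 and TGFBI, and those with a negative one were GDF15, GDF11 and TGFB3. A positive difference cannot change sign with spike-in scaling, which only adds to it, so that scaling challenged the negative members alone. With scaling on the median, BAMBI (0.01), TGFB1 (0.03), SMAD4 (0.05) and LTBP1 (0.14) were positive by less than their scanner error of 0.20. Words such as higher and lower below are relative to the 75th percentile, and a negative difference of any other member measured on both arrays is a positive one on the spike-in scale.

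Among the TGF-beta ligands, TGFB3 stood apart from TGFB1. TGFB1, the most widely expressed of the 3 isoforms, was at 0.34 in the pubertal and 0.15 in the infant culture. That difference of 0.19 was no larger than its scanner error. TGFB2, an isoform with large roles in development, was at -1.75 and -1.09, a difference of -0.66, and its probes gave -0.65 and -0.67. TGFB3, an isoform known in the testis for its action on tight junctions between Sertoli cells, gave 158 intensity units in the pubertal culture and 406 in the infant culture. The difference was -1.45, or 2.73-fold lower in the pubertal culture. This rests on 1 probe, since the other TGFB3 probe was not well above background in either culture, at 22.6 and 20.5 intensity units. With both probes counted the difference was -0.70, under 2-fold. The measured probe alone gave -0.45 relative to the spike-in probes.

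TGF-beta is secreted in a latent complex, held in the matrix by latent TGF-beta binding proteins. LTBP3 had the largest difference of the 4, from 0.17 on the infant to 1.00 on the pubertal array. The difference of 0.83 is 1.77-fold, and its probes gave 0.91 and 0.74. LTBP1, which anchors latent TGF-beta to fibrillin and fibronectin matrix, was at 3.49 and 3.19, a difference of 0.30. LTBP2, which does not bind latent TGF-beta, was at -1.96 and -1.71, and its 4 probes ran from -0.70 to 0.58. LTBP4 was at -0.98 and -1.08, with probes at 0.49 and -0.28. For both of these genes the probes do not settle a direction.

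None of the 5 BMP ligands was measured on both arrays. For a gene well above background on 1 array only, the fold is a lower bound, taken on the array where it is dim against the lowest signal well above background, or against the gene's own signal if that is brighter. BMP5 gave 82.9 intensity units in the pubertal culture and 4.01 in the infant culture, where it was not well above background. Its level was at least 4.21-fold higher in the pubertal culture. BMP7, a ligand with known roles in kidney and germ cell development, was also well above background in the pubertal culture alone. One BMP7 probe gave 182 and 20.6 intensity units, at least 8.30-fold higher, and a second gave 26.9 and 13.1, at least 1.37-fold higher. The third BMP7 probe was not well above background in either culture, at 4.48 and 3.78, so the size of the BMP7 difference depends on the probe. BMP2 gave 8.97 in the pubertal culture, not well above background, and 21.9 in the infant culture, at least 1.12-fold lower. Its log2 bound of 0.16 was smaller than the scanner error of its probe, 0.79. BMP4, at 17.8 and 4.17, and BMP6, at 12.0 and 10.6, were not well above background in either culture. The BMP ligand signals were therefore at or near the limit of the array, apart from BMP5 and the brighter BMP7 probe.

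The growth and differentiation factors held the widest spread of any role. GDF15, a distant family member that is induced by cell stress and signals through the GFRAL receptor rather than the BMP receptors, gave 1342 intensity units in the pubertal and 16506 in the infant culture. The difference was -3.71, or 13.1-fold lower in the pubertal culture, and 14 of all 14243 genes had a more negative difference. GDF11, a close relative of myostatin that signals through SMAD2 and SMAD3, gave 268 and 669 intensity units. It was 2.65-fold lower, a difference of -1.41, which was -0.41 relative to the spike-in probes. GDF9, best known as a factor secreted by the oocyte, gave 132 and 58.1 intensity units. Its difference of 1.10, or 2.14-fold higher, was the member just past the 2-fold limit, and it was under the limit with scaling on the median (0.94), quantile normalization (0.99) and normexp background correction (0.57). GDF5, a ligand of joint and cartilage development, lay just inside the limit, at 135 and 65.2 intensity units and a difference of 0.96. GDF10 was well above background in the pubertal culture alone, at 40.3 against 16.1 intensity units, at least 2.05-fold higher. Its other probe was not well above background in either culture.

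**Figure D2:**
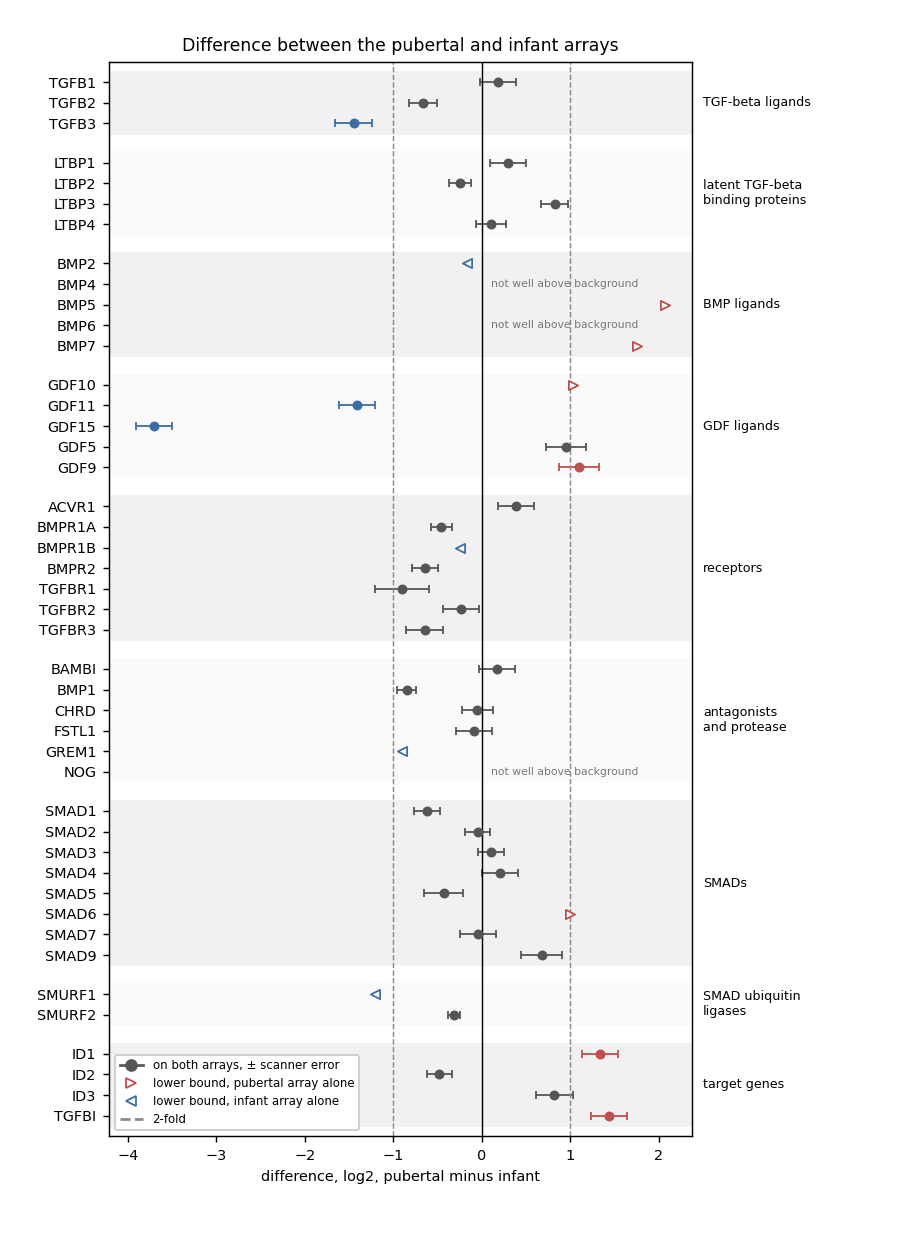
Difference between the arrays (log2, pubertal minus infant, relative to the 75th percentile) for the members by role, with the scanner error as bars; coloured points lie past 2-fold (dashed lines) and open triangles are lower bounds for genes measured on 1 array. GDF15 at -3.71 lies farthest from 0, the receptors lie mostly left of 0, and relative to the spike-in probes all differences of genes measured on both arrays move right by 0.996, which leaves GDF15, GDF11 and TGFB3 of them negative.

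Relative to the 75th percentile, the measured receptors all lay within 2-fold. Of the 7, 6 were measured on both arrays and 5 of these were negative, with a median of -0.55 and none past 2-fold. Among all genes measured on both arrays, 45.8% had a positive difference. Relative to the spike-in probes these 5 receptors were positive, from 0.09 for TGFBR1 to 0.76 for TGFBR2, and ACVR1 was at 1.39. TGFBR1, the type I kinase for TGF-beta, was dim on both arrays, at -3.65 and -2.75. Its difference of -0.90 had the largest scanner error of the members, 0.30, and passed 2-fold under scaling on the median (-1.06) and quantile normalization (-1.05). TGFBR2, the type II kinase that binds TGF-beta, was at 1.44 and 1.67, a difference of -0.23 with a scanner error of 0.20. Its other probe was not well above background in either culture, at 8.67 and 4.44 intensity units, and with both probes counted the difference was 0.32. TGFBR3, the co-receptor betaglycan, was at -1.14 and -0.50, a difference of -0.65. Betaglycan presents TGF-beta2 to the kinases and also serves as a co-receptor for inhibin.

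The BMP receptors gave probe values that lay close together. BMPR1A, a type I receptor, was at -0.03 in the pubertal and 0.43 in the infant culture. Its 3 probes gave -0.43, -0.56 and -0.38, each lower on the pubertal array. BMPR2, the type II receptor, was at 3.07 and 3.71, with probes at -0.50 and -0.78. ACVR1, also called ALK2, is a type I receptor for BMPs and was the exception, at 1.15 and 0.76, a difference of 0.39. BMPR1B was at the limit of the array, at 20.3 intensity units in the pubertal culture, not well above background, and 23.2 in the infant culture, at least 1.19-fold lower in the pubertal one. Its log2 bound of 0.25 was smaller than the scanner error of its probe, 0.44.

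Extracellular antagonists gave small differences or faint signals. FSTL1, a secreted follistatin-like glycoprotein that binds BMPs, was at 4.10 and 4.19. BAMBI, a membrane pseudoreceptor that lacks the kinase domain, was at 4.31 and 4.14. The differences of -0.09 and 0.17 were each smaller than the scanner error of 0.20. Chordin (CHRD), which holds BMPs away from their receptors, was at -2.40 and -2.35, with probes at 0.35 and -0.45. Gremlin (GREM1), a BMP antagonist of the DAN family, was well above background in the infant culture alone, at 36.5 intensity units against 13.1, and was at least 1.87-fold lower in the pubertal culture. Noggin (NOG) was not well above background in either culture, at 12.2 and 8.87. BMP1, which in spite of its name is a metalloprotease that cleaves chordin and procollagen, was at -1.16 and -0.31. Its difference of -0.85 came from 4 probes, which gave -0.74, -0.69, -0.63 and -1.34, and it passed 2-fold under scaling on the median (-1.01).

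**Figure D3:**
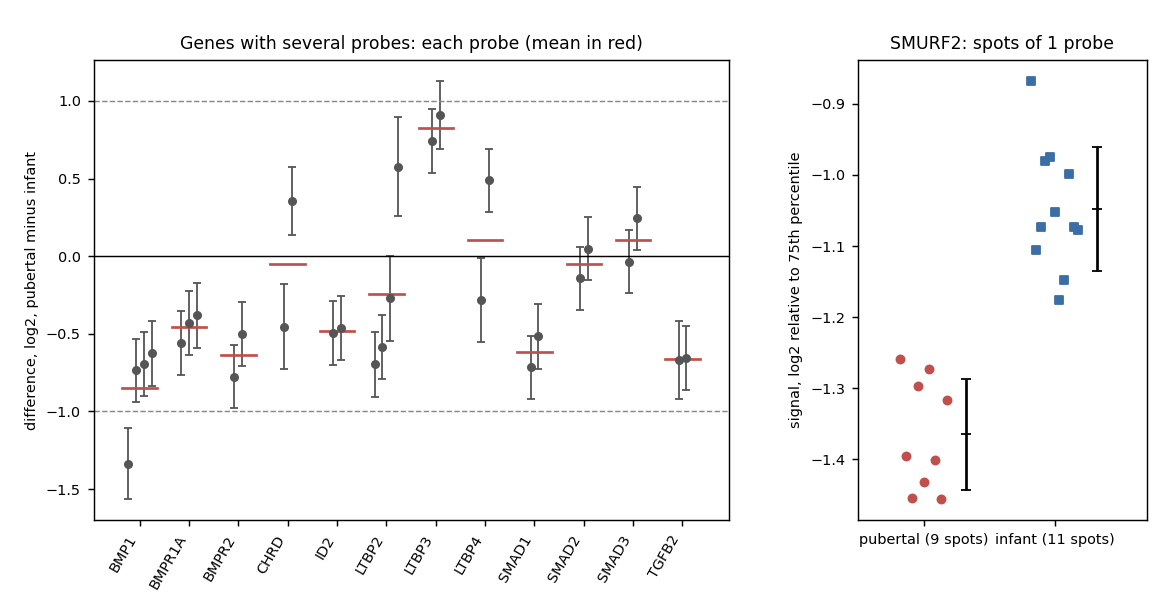
Left, the difference (log2, pubertal minus infant) of each probe for the 12 members with several probes measured on both arrays, with the scanner error as bars and the mean in red; BMP1, BMPR1A, BMPR2, ID2, SMAD1 and TGFB2 have all probes below 0 and LTBP3 all above, and with spike-in scaling every point moves up by 0.996. Right, the spots of the 1 replicated SMURF2 probe on each array, with mean and SD; the 9 pubertal spots lie from -1.46 to -1.26 and the 11 infant spots from -1.18 to -0.87.

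The SMAD proteins, which carry the signal to the nucleus, all lay within 2-fold where both arrays measured them. The receptor SMADs of the TGF-beta branch had nearly equal levels, SMAD2 at 2.78 and 2.83 and SMAD3 at 1.60 and 1.49. SMAD4, the partner shared by both branches, was at 0.20 in the pubertal culture and -0.00 in the infant culture. Those differences were -0.05, 0.10 and 0.21. SMAD2's measured probes gave 0.05 and -0.14. Its other 2 probes were not well above background in either culture, at 4.86 and 4.04 and at 8.46 and 3.72 intensity units. With all 4 probes counted SMAD2's difference was 0.29. The probes of SMAD3 gave 0.24 and -0.03. The spot of the first lay in an area where neighbouring spots differed together between the arrays, and without it SMAD3's difference was -0.03.

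The BMP-branch SMADs did not share a direction relative to the 75th percentile. SMAD1 was at 0.82 and 1.44, a difference of -0.62, with probes at -0.52 and -0.72. SMAD5 was at -2.14 and -1.71, a difference of -0.43. SMAD9 was at -1.93 and -2.61, a difference of 0.68 in the other direction. Of the inhibitory SMADs, SMAD7, which blocks type I receptors of both branches, was at -0.97 and -0.93, a difference of -0.04. SMAD6, which acts mainly on the BMP branch, was well above background in the pubertal culture alone, at 39.2 against 14.3 intensity units. Its bound, at least 2.00-fold higher after rounding, is 0.997 on the log2 scale and so just inside 2-fold.

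SMURF1 and SMURF2 are ubiquitin ligases that mark SMADs and receptors for degradation. SMURF1 was well above background in the infant culture alone, at 49.6 intensity units against 22.8, and was at least 2.31-fold lower in the pubertal culture. Its other probe was not well above background in either culture. SMURF2 is the only member whose probe was spotted many times, and this shows how well 1 array repeats itself. After outliers were left out, the 9 pubertal spots ran from -1.46 to -1.26 with a median of -1.40 (SD 0.08), and the 11 infant spots from -1.18 to -0.87 with a median of -1.07 (SD 0.09). The spots of the arrays did not overlap, and how many other repeatedly spotted probes did so is not reported here. The gene's difference was -0.32, against a median absolute difference of 0.38 over all genes, and it was 0.68 relative to the spike-in probes. The other SMURF2 probe was not well above background in either culture, at 24.3 and 15.1 intensity units. With both SMURF2 probes counted the difference was 0.14, so its direction depends on the probes. Over the 81 probes spotted repeatedly, the median SD was 0.09 on each array. Spots share 1 culture, so this spread says nothing of how cultures vary.

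Among the target genes, TGFBI and ID1 were higher on the pubertal array. TGFBI, a secreted matrix protein named for its induction by TGF-beta, gave 1301 and 452 intensity units. Its difference of 1.44, or 2.71-fold, was the most positive of the 33 members. ID1, a helix-loop-helix inhibitor that BMP signals induce, gave 3057 and 1140 intensity units, a difference of 1.33, or 2.52-fold. ID3 went the same way, at -0.92 and -1.74, a difference of 0.82. ID2 went the other way, at 1.10 and 1.58, with probes at -0.46 and -0.49. The 3 ID genes thus did not share a direction relative to the 75th percentile.

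The wider set of BMP target genes showed a similar mixture. Of 18 genes on the array, 7 of them members, 11 were measured on both arrays, with a median of 0.17 against -0.06 for all genes. Of the 11, 2 (ID1 and ID4) lay past 2-fold on the higher side and 0 on the lower side, against 7.32% and 6.32% of all genes. ID4, a family member known from undifferentiated spermatogonia, was at 1.27 and -2.04, a difference of 3.31. HEY1, a transcriptional repressor that also responds to Notch, was well above background in the pubertal culture alone, at least 4.45-fold higher.

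TGF-beta target genes split in both directions. Of the 29 on the array, 27 were measured on both arrays, 5 of these lay past 2-fold on the higher side and 3 on the lower side, against 7.32% and 6.32% of all genes, and the median was -0.11. ACTA2, smooth muscle actin, was at 3.81 and 0.35, a difference of 3.46, and COL1A2, a chain of type I collagen, was at 2.03 and 0.11, a difference of 1.92. TAGLN (1.07), FN1 (1.06) and TGFBI (1.44) had smaller differences. ACTA2 and TAGLN are also in the peritubular myoid marker list and COL1A2 in the fibroblast list. Among the lower genes, ANGPTL4, an inhibitor of lipoprotein lipase, was at -1.24 and 2.59, a difference of -3.83. JUNB, a transcription factor of the AP-1 group, differed by -1.15. The collagen genes of the list did not share a direction, with COL1A1 at 0.22, COL3A1 at -0.76 and COL4A1 at -0.45. With spike-in scaling ANGPTL4 and JUNB stay negative, and COL3A1 and COL4A1 turn positive.

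The other pathway lists held few genes past 2-fold. Among all genes measured on both arrays, 45.8% had a positive difference, and the median was -0.06. Past 2-fold lay 7.32% on the higher side and 6.32% on the lower side. Whether any list departed from these shares was not tested. Of 8 further receptors and co-receptors 6 were measured on both arrays, all with a positive difference and a median of 0.41, and RGMA, a BMP co-receptor of the repulsive guidance family, was the only one past 2-fold, at 0.03 and -1.98. Among 25 further ligands and ligand regulators, 13 were measured on both arrays with a median of 0.24. BMP8B, a ligand known from the germ line, was at -2.82 and -3.90, a difference of 1.08. Decorin (DCN), a matrix proteoglycan that binds TGF-beta and is also in the fibroblast list, was at 2.52 and 4.01, a difference of -1.49. FBN2, a fibrillin, was measured in the pubertal culture alone, at least 3.45-fold higher. The list of 14 further extracellular antagonists also holds the tolloid-like proteases TLL1 and TLL2. Of its genes 6 were measured on both arrays, TLL2 among them, with a median of 0.13 and none past 2-fold. Of the 22 further intracellular regulators 20 were measured on both arrays, with a median of 0.02 and none past 2-fold. C18orf1, one of the intracellular regulators, was measured in the pubertal culture alone, at least 4.34-fold higher.

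Several members differed in the same direction as markers of other cells. GDF9, BMP5, BMP7, ID1 and ID3, and outside the members ID4 and BMP8B, were higher on the array with the larger summed germ cell signal. There all 5 germ cell markers measured on both arrays were higher, DAZL by 4.72, DDX4 was at least 13.2-fold higher, and DPPA4 was at least 1.05-fold lower. TGFBI was higher on the array with the larger summed peritubular myoid and macrophage signal. There all 6 myoid markers were higher, MYH11 by 2.24, and 4 of 5 macrophage markers were higher, CD163 by 3.09, while CD68 differed by -0.94. GDF15, GDF11 and TGFB3 were lower on the array with the lower summed Leydig cell signal, where 3 of the 5 measured markers were lower, STAR by -4.24, and 2 were higher. The Sertoli cell list itself had a median difference of 0.57, with 3 of 10 markers at least 2-fold higher in the pubertal culture and 0 at least 2-fold lower. Its summed signal (293 and 159) and the endothelial one (1.53 and 0.701) were also larger there, and the fibroblast one (27.0 and 32.1) was also lower. With 2 arrays, every higher member goes with every higher list and every lower member with every lower list. Which list a member belongs with therefore cannot be told apart. The part of these cells in the differences was not tested.

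**Figure D4:**
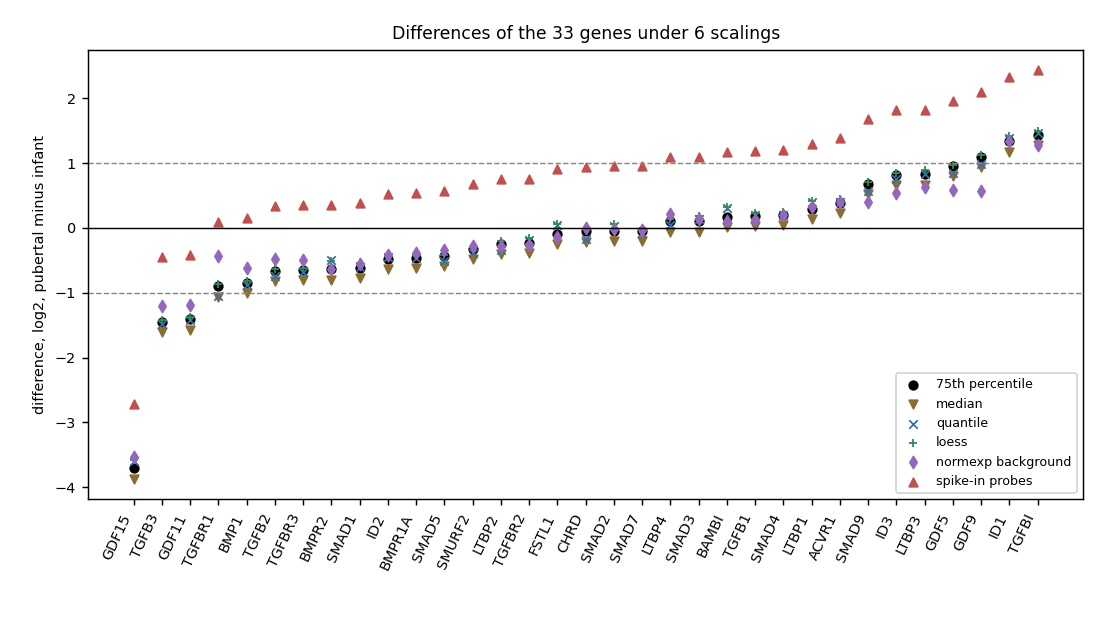
Difference (log2, pubertal minus infant) of the 33 members measured on both arrays under 6 scalings, ordered by the value relative to the 75th percentile (black), with 2-fold as dashed lines. GDF15 (-3.71), TGFB3 (-1.45) and GDF11 (-1.41) stay below 0 and TGFBI, ID1 and GDF9 above 0 under all 6, while spike-in scaling lifts every gene by 0.996.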

How the data were processed

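RNA of 1 pubertal and 1 infant culture was hybridised to 2 one-colour Agilent arrays of a human design, on the same slide and scan per the file headers. The deposited values are spot intensity values from Agilent Feature Extraction 10.5.1.1, background-subtracted and corrected for spatial trend by the authors, per the file headers (version per the submitters' processing notes), with no scaling between arrays recorded. Groups were taken from the sample titles.

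Each array held 52857 spots, 51538 of them for genes. Outlier spots (96 pubertal, 91 infant) and control spots were left out. Processed signals were put on a log2 scale, less each array's 75th percentile. Spots of a probe were averaged, a probe was measured where the deposited flag marked at least 50% of its spots as well above background, and a gene's value was the mean over probes measured on both arrays. Only probes with a gene symbol were used, and all 44 symbols occur in the macaque RefSeq gene table. Having 1 array per group allows no test, and this number limits the precision. Every member was named whatever its value, and from 6 further pathway lists the genes past 2-fold, some of which are not reported here. The members, the pathway lists and the 7 marker lists were chosen with earlier results of these data known.

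Alternatives were normexp background correction (limma 3.58.1, R 4.3.3, offset 50), median, quantile and loess (span 0.3) scaling, the brightest probe, the median of all probes, no filter, a filter at the median signal, outliers kept, and thresholds of 1.5- and 4-fold. Spike-in scaling and leaving out 807 spots (1.53%) in disturbed areas were added after the data were seen. The calculations (Python 3.11.15, numpy 2.4.6, pandas 2.3.3) were tested on simulated data.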

Additional observations from a re-analysis of the deposited data

How the results depend on the processing

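The limits are 1 array per group, human probes and faint ligands. The median of the members measured on both arrays ran from -0.21 with scaling on the median to 0.10 with no filter or with the median of all probes, and rose to 0.95 with spike-in scaling. The median over all genes was -0.22 with scaling on the median, 0.06 with no filter, -0.04 with the median of all probes and 0.94 with spike-in scaling. With scaling on the median 5 of the 33 members were at least 2-fold lower, where BMP1 and TGFBR1 joined, against 9.16% of all genes. With no filter on dim probes 7 of 44 members were at least 2-fold higher, against 9.68% of 21495 genes. At 1.5-fold 7 of the 33 were higher and 9 lower, against 15.0% and 16.8% of all genes. At 4-fold 0 were higher and 1 lower, against 1.67% and 0.857%. Spike-in scaling, chosen after the data were seen, gave 14 higher and 1 lower, against 45.5% and 0.871%. Whether the members departed from these shares was not tested. Over all genes the counts past 2-fold were 1042 higher and 900 lower. They became 553 and 568 with normexp, 785 and 1305 with scaling on the median, and 2081 and 1485 with no filter. At 1.5-fold they were 2142 and 2392, at 4-fold 238 and 122, and with spike-in scaling 6485 and 124. The share of these calls that were higher was 53.7%, against 37.6% with scaling on the median and 98.1% with spike-in scaling. Of 362 values of single members under the alternatives, 71 moved by more than their scanner error, 38 of them outside spike-in scaling. Under the 5 scalings other than spike-ins, 29 of the 33 members kept 1 sign, the exceptions being FSTL1, LTBP4, SMAD2 and SMAD3. Spike-in scaling adds 0.996 to every difference and scaling on the median moves every difference by -0.16, so these shifts are not particular to the members. The cause of the other shifts was not tested. No paired analysis was possible because each group has 1 array.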
